A study of Mus musculus with 12 samples.

Results

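Mitochondrial ribosomal proteins were taken as the protein-coding genes whose symbol begins with Mrpl or Mrps followed by a number and that had at least 10 counts over 12 RNA-seq libraries. Of 54532 genes in the table, 78 carried such a name and 77 had enough counts. All 77 also passed the filter on low counts that left 14506 genes for testing. The exception, Mrpl53, had 0 counts in each library, and 88.0% of its annotated exon bases overlap other genes, so its value is not read as absence of the transcript. The members comprise 50 proteins of the large subunit, 26 of the small subunit, and Mrps36, which is named as a small-subunit protein but is now placed in the 2-oxoglutarate dehydrogenase complex. Mrps30 and Mrps18a carry small-subunit names and are counted with the large subunit, where structures of the mammalian particle place them.

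The cells were resident peritoneal macrophages, the phagocytes that live in the abdominal cavity, harvested from C57BL/6 mice. Culture was for 24 h in DMEM that held either MOPS or HEPES as its buffer, and some cultures received 10 ng/ml LPS, a bacterial cell-wall component sensed by a Toll-like receptor, for 2 h. The 4 groups were MOPS with LPS, HEPES with LPS, MOPS untreated and HEPES untreated, with 3 libraries each and no genetic alteration named. The labels number the libraries 1 to 12: 1 to 3 are MOPS, 4 to 6 HEPES, 7 to 9 MOPS with LPS and 10 to 12 HEPES with LPS. The design text names pH 6.8 and 7.4 and then MOPS and HEPES, so the acid pH goes with MOPS by word order alone. Buffer and pH cannot be told apart, and each medium comparison is of the whole medium. The labels do not say whether libraries came from separate mice, so each p-value sets a difference against the spread between these libraries only.

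The mitochondrial ribosome translates the few mRNAs made from mitochondrial DNA, all of which encode membrane subunits of the respiratory chain and ATP synthase. Its rRNAs are transcribed in the organelle, whereas all of its proteins are encoded in the nucleus, made in the cytosol and imported, so assembly draws on both genomes. Compared with the bacterial ribosome it has less RNA and many added proteins, and its exit tunnel is held against the inner membrane so that new chains pass straight into it. Roles given below are those known from the mammalian particle or from human genetics. In macrophages, LPS is known to shift energy metabolism away from respiration towards glycolysis.

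Libraries held 20114613 to 24734853 counts, and the members held 1848 (Mrps6) to 12929 (Mrpl52) counts each over the 12 libraries. Levels are in CPM, counts relative to library size, after TMM scaling, which uses a trimmed mean to set the bulk of genes level between libraries. All 10 macrophage markers were tested, and their summed level was 17351 to 19685 CPM in MOPS with LPS, 27312 to 29074 CPM in HEPES with LPS, 16720 to 16971 CPM in MOPS and 26002 to 27392 CPM in HEPES. Most of that sum is Lyz2, the lysozyme gene, with means of 13830 CPM in MOPS with LPS, 23350 CPM in HEPES with LPS, 12600 CPM in MOPS and 21980 CPM in HEPES. The markers went both ways between the media, with 3 higher and 5 lower in MOPS than in HEPES without LPS and 3 higher and 4 lower with it. The 10 B cell markers summed to 122 to 135 CPM in MOPS with LPS, 25.8 to 31.7 CPM in HEPES with LPS, 205 to 215 CPM in MOPS and 90.6 to 163 CPM in HEPES, so they moved with both factors. All 10 were lower with LPS in HEPES and 7 were lower with LPS in MOPS, and 10 were higher in MOPS than in HEPES with LPS and 5 without it. None of the B cell markers had 0 counts over the 12 libraries together. Markers of T and NK cells summed to at most 1.22 CPM in any library, with Ncr1 at 0. Of 6 tested dendritic cell markers, 4 were higher and 1 lower in MOPS than in HEPES without LPS, and 4 higher and 2 lower with it. The median log2 changes over all 6 were 1.70 without LPS and 1.23 with it. The granulocyte and mast cell markers summed to 247 CPM in MOPS with LPS, 199 CPM in HEPES with LPS, 329 CPM in MOPS and 306 CPM in HEPES on average. Fewer cells of a type and less RNA per cell cannot be told apart in bulk RNA, and the part of such cells in the results below was not tested.

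Between genes, levels were compared per length, as RPKM (CPM per kilobase of the gene's annotated exons). The members' mean RPKM over the 12 libraries spanned a 49.4-fold range around a median of 7.86. Mrpl52, a large-subunit protein with no bacterial counterpart, had the highest mean at 44.4 RPKM, followed by Mrps21 at 31.0, Mrpl27 at 30.8, Mrpl54 at 24.9 and Mrpl43 at 23.6 RPKM. The lowest were Mrpl47 at 1.83, Mrps30 at 1.63 and Mrps35, a small-subunit protein, at 0.900 RPKM. These figures are limited by the annotated lengths, which for 72 of the 77 members equal the union of every annotated exon and ran from 607 to 8631 bases. Mrps35 has the longest and Mrpl34 the shortest. Libraries of a group were close, with a median coefficient of variation per member of 5.50% in MOPS with LPS, 5.40% in HEPES with LPS, 5.51% in MOPS and 4.38% in HEPES.

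As a whole, the members took 0.134% ± 0.00168 of all counts in MOPS with LPS (0.133% ± 0.00194 in HEPES with LPS), against 0.182% ± 0.00312 in MOPS and 0.188% ± 0.0023 in HEPES (SD, n = 3 each). The groups with LPS did not overlap those without it. After TMM scaling the lower level with LPS was not seen. The large-subunit members summed to 1106 ± 8.34 CPM with LPS, against 1026 ± 20.8 CPM without it, in MOPS, and to 1185 ± 17.1 CPM with LPS, against 1099 ± 23.2 CPM without it, in HEPES. The small-subunit members summed to 451 ± 2.07 CPM with LPS, against 460 ± 9.75 CPM without it, in MOPS, and to 467 ± 7.79 CPM with LPS, against 458 ± 3.96 CPM without it, in HEPES. The scaling factors were 0.842 to 0.863 with LPS in MOPS and 0.800 to 0.801 with LPS in HEPES, against 1.22 in MOPS and 1.19 to 1.21 in HEPES. With library totals alone in place of TMM, the median log2 LPS change of all genes tested was -0.55 in MOPS and -0.67 in HEPES, where TMM gave -0.03 and -0.08. Changes below are therefore relative to the bulk of genes. A quantity free of this scaling is the ratio of small- to large-subunit counts within a library, which was 0.407 ± 0.00147 with LPS, against 0.448 ± 0.0059 without it, in MOPS, and 0.394 ± 0.00548 with LPS, against 0.417 ± 0.0065 without it, in HEPES. The ratio was lower with LPS in every library of both media. It was higher in each MOPS library than in any HEPES library among untreated cells. The same held with LPS, at 0.407 to 0.409 in MOPS against 0.390 to 0.400 in HEPES. Such a ratio weighs members by their counts. Mrpl52, of the large subunit, averaged 51.52 CPM with LPS against 24.96 CPM in MOPS, and 78.95 against 41.65 CPM in HEPES. Mrpl39 averaged 46.86 against 16.28 CPM, and 50.79 against 20.42 CPM. The ratio without Mrpl52 and Mrpl39 was not tested. The median log2 LPS change was 0.07 in MOPS and 0.01 in HEPES for large-subunit members, and -0.01 and 0.03 for small-subunit members.

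LPS moved members in both directions at once. In MOPS, 24 members were called higher and 21 lower at a Benjamini-Hochberg adjusted p under 0.05 over all genes (edgeR's quasi-likelihood test), where 69% of all genes were called, 34.1% higher and 34.9% lower. In HEPES, 27 were higher and 28 lower, where 76.9% of all genes were called, 35.6% higher and 41.2% lower. In all, 45 of the 77 members were called in MOPS and 55 in HEPES, in each case a smaller share than among all genes. Libraries with and without LPS did not overlap in 59.7% of members in MOPS (71.8% of all genes) and 72.7% in HEPES (78.4%). The members' median log2 change was 0.05 in MOPS and 0.01 in HEPES, beside -0.03 and -0.08 for all genes. The median called change of the members was 1.31-fold in MOPS and 1.40-fold in HEPES, beside 1.58-fold and 1.83-fold for all genes. A change over 1.5-fold passed the test in 6 members in MOPS (7.79%, against 38.2% of all genes) and 16 in HEPES (20.8%, against 51.7%). Of large-subunit members, 18 were higher and 13 lower in MOPS and 21 higher and 18 lower in HEPES. Of small-subunit members, 6 were higher and 8 lower in MOPS and 6 higher and 9 lower in HEPES. With library totals alone, 2 members were higher and 64 lower in MOPS, and 5 higher and 59 lower in HEPES. With gene length taken into the scaling, the counts in HEPES were 36 higher and 18 lower. The median log2 change in HEPES was then 0.02 for all genes and 0.12 for the members.

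**Figure D1:**
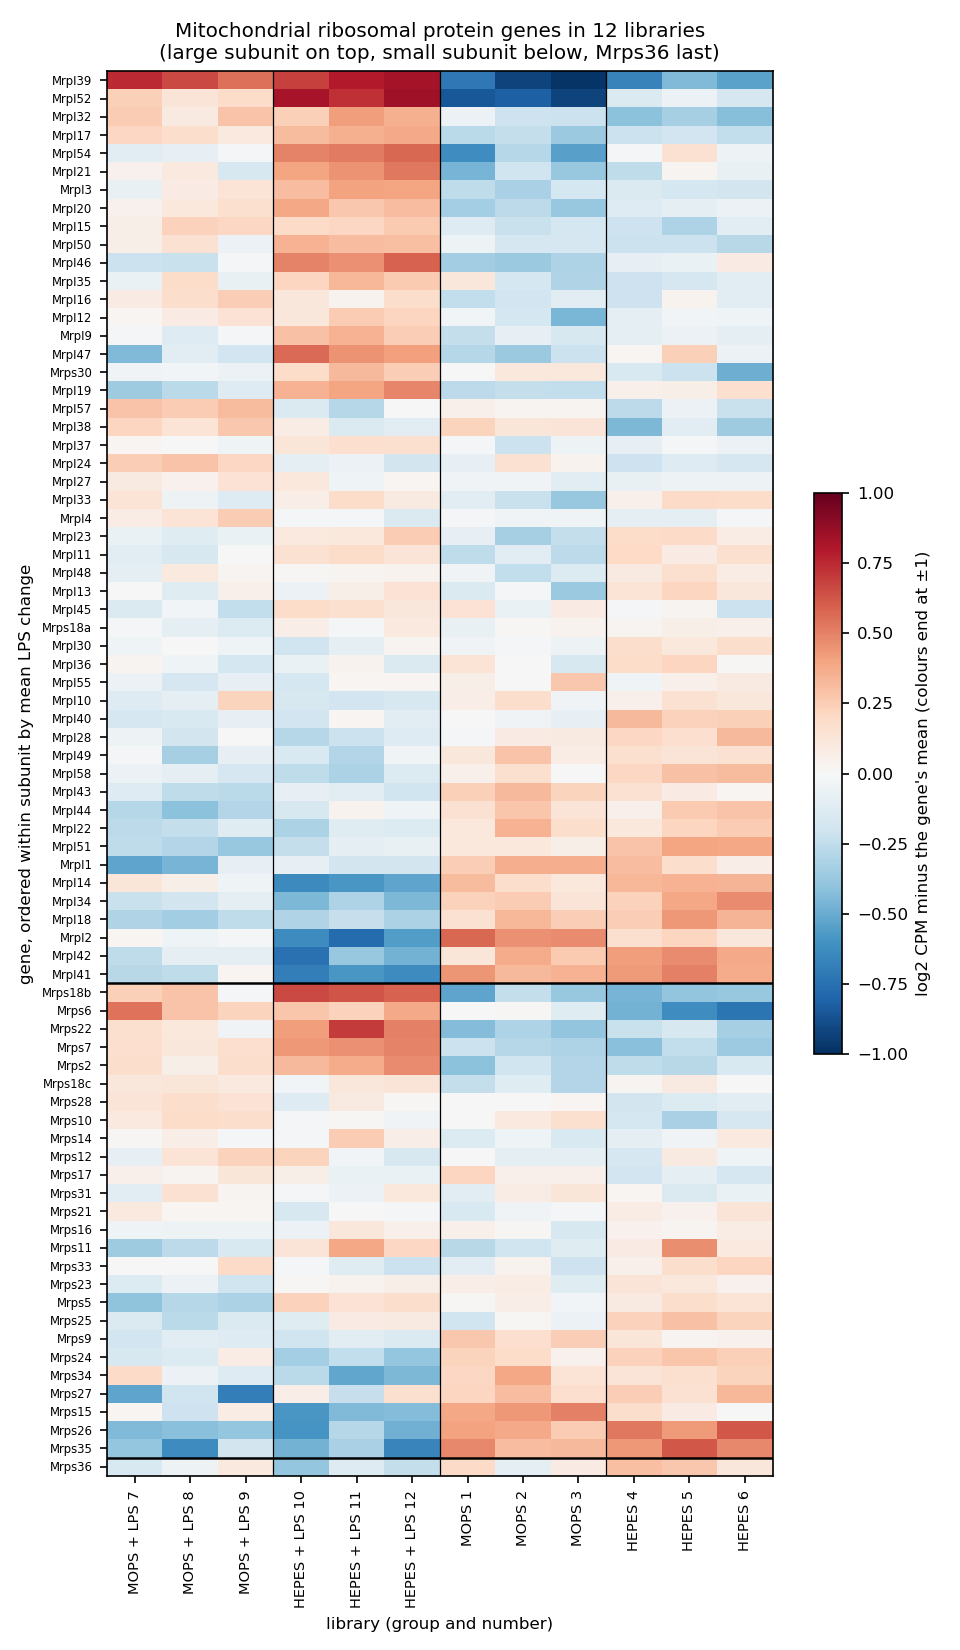
Each row is 1 of the 77 members and each column 1 of the 12 libraries, coloured by TMM-scaled log2 CPM minus the gene's own mean, with colours ending at a difference of 1 in either direction. Members higher with LPS (red on the left, Mrpl39 and Mrpl52 on top) and members lower with LPS (Mrpl41, Mrps35 and Mrps26 near the bottom of their blocks) stand in both subunits; with library totals alone 2 members in MOPS and 5 in HEPES were higher.

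In both media, 17 members were called higher with LPS: Mrpl3, Mrpl12, Mrpl15, Mrpl16, Mrpl17, Mrpl20, Mrpl21, Mrpl32, Mrpl39, Mrpl50, Mrpl52 and Mrpl54 of the large subunit, and Mrps2, Mrps6, Mrps7, Mrps18b and Mrps22 of the small. They are 22.1% of the members, where 29.2% of all genes were higher in both. The 2 LPS comparisons share no library. With library totals alone, 14 of the 17 had a negative sign in MOPS, the exceptions being Mrpl39, Mrpl52 and Mrps18b.

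Mrpl39 (chr16:84717576-84735742, reverse strand), a large-subunit protein related in sequence to threonyl-tRNA synthetase, had the largest LPS change in both media. Positions are of the whole gene as the table gives them, on mm10. It stood at 49.8, 47.1 and 43.6 CPM in MOPS with LPS, against 18.1, 15.7 and 15.1 CPM in untreated MOPS. In HEPES it stood at 47.7, 51.5 and 53.1 CPM with LPS, against 18.8, 21.9 and 20.5 CPM untreated. No library with LPS came near any untreated one, and the log2 change was 1.53 ± 0.072 (SE) in MOPS (adjusted p = 4.2e-18) and 1.32 ± 0.069 in HEPES (adjusted p = 4.4e-17). Mrpl52 (chr14:54426909-54429756, forward strand), the most abundant member per length, had 53.3, 49.6 and 51.6 CPM in MOPS with LPS, against 25.2, 25.8 and 23.9 CPM in MOPS. It had 80.5, 75.03 and 81.4 CPM in HEPES with LPS, against 41.1, 43.5 and 40.4 CPM in HEPES. All 4 groups of Mrpl52 were apart from each other, and its log2 LPS change was 1.04 ± 0.055 in MOPS (adjusted p = 4.5e-17) and 0.92 ± 0.05 in HEPES (adjusted p = 7.1e-17). These were the 2 members still called higher in both media with library totals alone.

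The small-subunit members Mrps18b, Mrps7, Mrps22, Mrps2 and Mrps6 rose with LPS in both media, and the rise was larger in HEPES by the interaction test for Mrps18b, Mrps7 and Mrps6. Mrps18b, 1 of 3 mammalian relatives of a single bacterial protein, had 29.1, 28.4 and 27.6 CPM in HEPES with LPS, against 13.3, 13.98 and 14.2 CPM in HEPES, a log2 change of 1.04 ± 0.081 (adjusted p = 4.9e-13). In MOPS it had 21.6, 22.3 and 18.1 CPM with LPS, against 12.8, 15.6 and 14.1 CPM untreated, a log2 change of 0.55 ± 0.083 (adjusted p = 8.9e-07). The relatives differed: Mrps18c rose by 0.32 in MOPS (adjusted p = 0.00045) and had a log2 change of 0.03 in HEPES (adjusted p = 0.70), and Mrps18a, which sits in the large subunit, had -0.07 and 0.01 and passed the test in neither (both called lower with library totals alone, as was Mrps18c; Mrps18a in HEPES called higher with gene length in the scaling, adjusted p = 0.0353). Mrps7, a protein of the small subunit's head, rose by 0.81 ± 0.058 in HEPES (adjusted p = 8.8e-14) and by 0.42 ± 0.059 in MOPS (adjusted p = 2.8e-07) on the log2 scale, and overlaps the opposite-strand genes Gga3 and Mif4gd. Mrps22, a small-subunit protein mutated in human mitochondrial disease, rose by 0.78 ± 0.10 in HEPES (adjusted p = 5.8e-08) and 0.46 ± 0.11 in MOPS (adjusted p = 0.00048), and Mrps2 by 0.62 ± 0.072 and 0.43 ± 0.073 (adjusted p = 4.2e-09 and 5.9e-06). Mrps6 stood at 8.06, 7.82 and 8.68 CPM in HEPES with LPS, against 4.79, 4.33 and 4.02 CPM in HEPES, but shares exon bases on the same strand with Slc5a3, and the part of that gene's reads was not tested. With library totals alone, Mrps18b, Mrps6 and Mrps7 were called higher in HEPES, Mrps22 in HEPES was not (adjusted p = 0.0773), and in MOPS Mrps22, Mrps2, Mrps6, Mrps7 and Mrps18c had a negative sign.

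In both media, 19 members (24.7%) were called lower with LPS, where 30.2% of all genes were. Each kept its sign with RLE, with gene length in the scaling and in DESeq2; library totals move the bulk of genes down and so are no check of this sign. They were Mrpl1, Mrpl2, Mrpl18, Mrpl22, Mrpl34, Mrpl41, Mrpl42, Mrpl43, Mrpl44, Mrpl49, Mrpl51 and Mrpl58 of the large subunit and Mrps9, Mrps15, Mrps24, Mrps26, Mrps27, Mrps34 and Mrps35 of the small. A further 14 members (18.2%) were called in neither medium, against 15.4% of all genes.

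Mrps35 (chr6:147042764-147073991, forward strand), a small-subunit protein at the head of the particle, had 5.33, 5.91 and 4.67 CPM in HEPES with LPS, against 9.96, 11.4 and 10.3 CPM in HEPES, a log2 change of -0.99 ± 0.12 (adjusted p = 1.3e-08). In MOPS it had 5.66, 4.78 and 6.50 CPM with LPS, against 10.3, 9.16 and 9.25 CPM untreated, and changed by -0.77 ± 0.12 (adjusted p = 1.6e-06). Mrps26 had 12.5, 12.7 and 12.9 CPM in MOPS with LPS, against 22.3, 22.01 and 20.2 CPM in MOPS, and 11.3, 13.9 and 12.2 CPM in HEPES with LPS, against 24.4, 22.8 and 26.03 CPM in HEPES. The groups with and without LPS of both genes did not overlap, as in 71.8% of all genes in MOPS and 78.4% in HEPES. Mrps26 changed by -0.76 ± 0.082 in MOPS (adjusted p = 1.1e-09) and -0.97 ± 0.081 in HEPES (adjusted p = 3.2e-12). Mrpl18, which binds RNA in the large subunit's central protuberance, fell by 0.55 in MOPS and 0.62 in HEPES on the log2 scale (adjusted p = 8.8e-07 and 6.9e-08), and Mrpl1, of the stalk beside the exit site for tRNA, by 0.68 and 0.34 (adjusted p = 1.1e-06 and 0.0042). Mrpl18 overlaps the abundant gene Tcp1 on the opposite strand, and Mrpl44 overlaps Wdfy1, an opposite-strand gene of higher count. Mrpl44, which carries a ribonuclease III fold, fell by 0.52 in MOPS (adjusted p = 5.1e-06) and by 0.25 in HEPES (adjusted p = 0.0092). The call in HEPES was lost without HEPES with LPS library 10 or 12 (adjusted p = 0.134 and 0.0566), with gene length in the scaling (0.224) and in DESeq2 (0.0595).

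**Figure D2:**
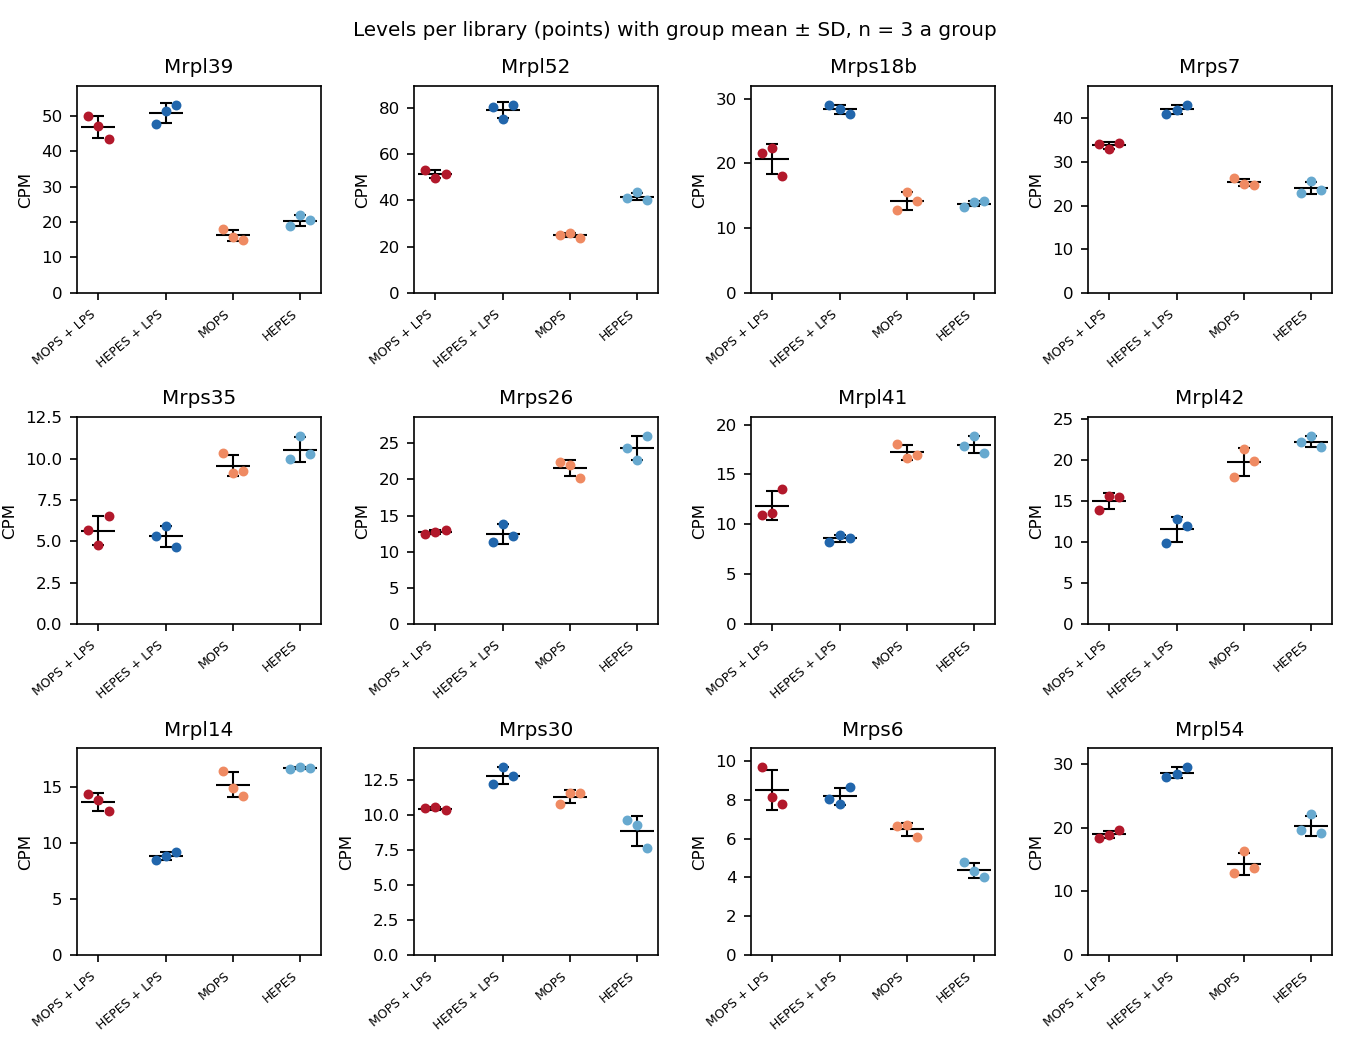
Points are TMM-scaled CPM of single libraries, and bars the mean ± SD of 3 libraries, for 12 members; every axis starts at 0. Mrpl39 and Mrpl52 were higher with LPS in both media, Mrps35, Mrps26, Mrpl41 and Mrpl42 lower, and Mrpl14 lower with LPS in HEPES. The rises of Mrpl39 and Mrpl52 were also called with library totals alone. That scaling moves the bulk of genes down with LPS and so is no check of the falls.

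Members at known functional sites did not move as one. Of the stalk that recruits translation factors, Mrpl12, which in human cells also binds the mitochondrial RNA polymerase, rose by 0.29 ± 0.086 in MOPS (adjusted p = 0.0037; 0.0531 without MOPS library 3) and 0.25 ± 0.084 in HEPES (adjusted p = 0.0079), both with a negative sign under library totals alone. Its anchor Mrpl10 fell by 0.27 in HEPES (adjusted p = 0.0032; 0.149 with gene length in the scaling) and had a log2 change of -0.07 in MOPS (adjusted p = 0.43; 0.035 without MOPS with LPS library 9), and Mrpl11, where factors bind, had 0.12 and 0.01 (adjusted p = 0.15 and 0.92), called higher in both with gene length in the scaling (0.0171 and 0.0269) and negative with library totals alone. Mrps12, of the decoding centre, had 0.17 in MOPS and 0.06 in HEPES and passed the test in neither (adjusted p = 0.12 and 0.60; 0.0364 in MOPS without MOPS with LPS library 7; negative in both with library totals alone). Mrpl3, near the peptidyl transferase centre, rose by 0.30 ± 0.057 in MOPS and 0.54 ± 0.056 in HEPES (adjusted p = 2.5e-05 and 3.3e-10), again with a negative sign under library totals alone. Mrpl4, at the exit tunnel, rose in MOPS by 0.19 (adjusted p = 0.0069; 0.0636 without MOPS with LPS library 9 and 0.0525 with no filter on low counts) and had 0.01 in HEPES (adjusted p = 0.89; 0.00726 with gene length in the scaling), both negative with library totals alone. Mrpl45, which tethers the exit tunnel to the inner membrane, was the 1 member called in opposite directions, lower in MOPS and higher in HEPES. Of all genes, 0.86% were called so and 1.07% the other way. Mrpl45 stood at 16.2, 17.6 and 15.1 CPM in MOPS with LPS, against 19.9, 17.1 and 18.9 CPM in MOPS. In HEPES it stood at 20.4, 20.01 and 19.4 CPM with LPS, against 17.8, 18.3 and 15.5 CPM untreated. The groups overlapped in MOPS, where the change of -0.19 (adjusted p = 0.042) lost its call in 4 of 12 refits without 1 library (MOPS library 1 or 3, MOPS with LPS library 7 or 9; adjusted p up to 0.177), in DESeq2 (0.0923) and with gene length in the scaling (0.256), and the change of 0.21 in HEPES (adjusted p = 0.018) lost its call without HEPES library 6 (adjusted p = 0.128) and with no filter on low counts (0.123), and was -0.37 with library totals alone. Mrpl58, a peptidyl-tRNA hydrolase built into the large subunit, fell by 0.51 ± 0.079 in HEPES (adjusted p = 9.5e-07) and had -0.18 in MOPS (adjusted p = 0.043), a call lost in 5 of 12 such refits (without MOPS library 1 or 2, HEPES library 5, MOPS with LPS library 8 or 9; adjusted p up to 0.191), in DESeq2, with gene length in the scaling and with only the 2 groups fitted.

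Whether the LPS change differed between the media was tested as an interaction: the log2 change by LPS of MOPS cultures less that of HEPES cultures. It was positive in 16 members and negative in 13, where 39.4% of all genes were called, 21.9% positive and 17.6% negative, and the members' median was 0.01, beside 0.06 for all genes. The split depended on the method. It was 3 positive and 21 negative with gene length in the scaling, 5 and 12 in DESeq2, 10 and 16 with RLE size factors, and 23 and 8 with library totals alone, although each of the 29 called members kept its sign in all 4. The all-gene median moved with the method too: -0.01 with gene length, 0.02 in DESeq2 and with RLE, and 0.13 with library totals alone. The members' median less the all-gene median was -0.08 with gene length, and -0.05 with the others and in the main fit. The number of positive calls fell to 5, 7 and 6 without HEPES with LPS library 10, 11 and 12, to 8 without MOPS with LPS library 7 or 8, and to 10 without MOPS library 3.

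The largest positive difference was that of Mrpl14 (chr17:45686322-45698495, forward strand), a large-subunit protein beside the face that meets the small subunit. It stood at 14.4, 13.8 and 12.8 CPM in MOPS with LPS, against 16.4, 14.9 and 14.2 CPM in MOPS, and the log2 change of -0.15 ± 0.083 did not pass the test (adjusted p = 0.11). In HEPES it stood at 8.49, 8.83 and 9.18 CPM with LPS, against 16.6, 16.8 and 16.7 CPM untreated, and fell by 0.92 ± 0.088 (adjusted p = 5.7e-11). The difference between the media was 0.77 ± 0.12 (adjusted p = 5.9e-06). Mrpl14 overlaps Tmem63b on the opposite strand over 11.2% of its exon bases, and the strand setting of the counting is not given in the sources used here. Mrpl41 and Mrpl42, large-subunit proteins without bacterial counterparts and without an overlapping gene, showed the same order. Mrpl41 (chr2:24974117-24975098, reverse strand) had 10.9, 11.2 and 13.5 CPM in MOPS with LPS, against 18.1, 16.6 and 16.9 CPM in MOPS. It had 8.22, 8.89 and 8.62 CPM in HEPES with LPS, against 17.9, 18.9 and 17.2 CPM in HEPES, so it fell in both, by 0.54 ± 0.087 in MOPS and 1.07 ± 0.091 in HEPES (adjusted p = 2.5e-06 and 4.8e-12), with a difference of 0.53 ± 0.13 (adjusted p = 0.0012). Mrpl42 fell by 0.40 ± 0.085 in MOPS and 0.95 ± 0.088 in HEPES, with a difference of 0.55 ± 0.12 (adjusted p = 0.00063). Smaller positive differences were called for, among others, Mrps33, Mrpl34 and Mrps36, at 0.41, 0.39 and 0.39 (adjusted p = 0.0089, 0.012 and 0.028). The call was lost without HEPES with LPS library 12 for Mrps33 (adjusted p = 0.0654), without HEPES with LPS library 10 or 12 for Mrpl34 (adjusted p = 0.0603 and 0.0645) and in 7 of 12 refits for Mrps36 (without MOPS library 2, HEPES library 4 or 5, MOPS with LPS library 8 or 9, HEPES with LPS library 10 or 12; adjusted p up to 0.144). In DESeq2 the Mrps36 call was lost as well (adjusted p = 0.084). With gene length in the scaling none of the 3 was called (adjusted p = 0.0526, 0.0512 and 0.142).

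The largest negative difference was that of Mrps30 (chr13:118378381-118387252, reverse strand), a large-subunit protein despite its name. It had 10.5, 10.6 and 10.4 CPM in MOPS with LPS, against 10.8, 11.6 and 11.6 CPM in MOPS, a log2 change of -0.11 (adjusted p = 0.30). It had 12.2, 13.5 and 12.8 CPM in HEPES with LPS, against 9.69, 9.26 and 7.67 CPM in HEPES, a change of 0.53 ± 0.097 (adjusted p = 1.3e-05) that turned to -0.05 with library totals alone. The groups overlapped in neither medium, and the difference was -0.65 ± 0.14 (adjusted p = 0.00032). Mrps6 and Mrps18b followed, at -0.50 ± 0.17 (adjusted p = 0.018; 0.0503 without HEPES library 6) and -0.49 ± 0.12 (adjusted p = 0.001). Mrps27, a pentatricopeptide-repeat protein that binds RNA, had 7.66, 9.60 and 6.83 CPM in MOPS with LPS, against 12.8, 13.7 and 12.4 CPM in MOPS, and 11.5, 9.42 and 12.3 CPM in HEPES with LPS, against 13.1, 12.3 and 13.9 CPM in HEPES. It fell by 0.69 ± 0.11 in MOPS (adjusted p = 2.9e-06), whereas its change of -0.24 in HEPES (adjusted p = 0.045) lost its call in 8 of 12 refits without 1 library (all but those without MOPS library 2, HEPES library 5, MOPS with LPS library 9 or HEPES with LPS library 12; adjusted p up to 0.486), with RLE, gene length, only the 2 groups or no robust fit, and in DESeq2. Its difference of -0.45 ± 0.16 (adjusted p = 0.022) lost its call without MOPS library 2, HEPES library 5 or MOPS with LPS library 9 (adjusted p = 0.0573, 0.054 and 0.0858) and with library totals alone (0.0578). Mrps5, next to the mRNA entry channel, had 11.9, 12.9 and 12.6 CPM in MOPS with LPS, against 15.9, 16.5 and 15.4 CPM in MOPS, and 18.4, 17.4 and 17.7 CPM in HEPES with LPS, against 16.8, 17.7 and 17.3 CPM in HEPES. Its groups were apart in MOPS and not in HEPES, and the difference was -0.40 ± 0.11 (adjusted p = 0.0032).

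**Figure D3:**
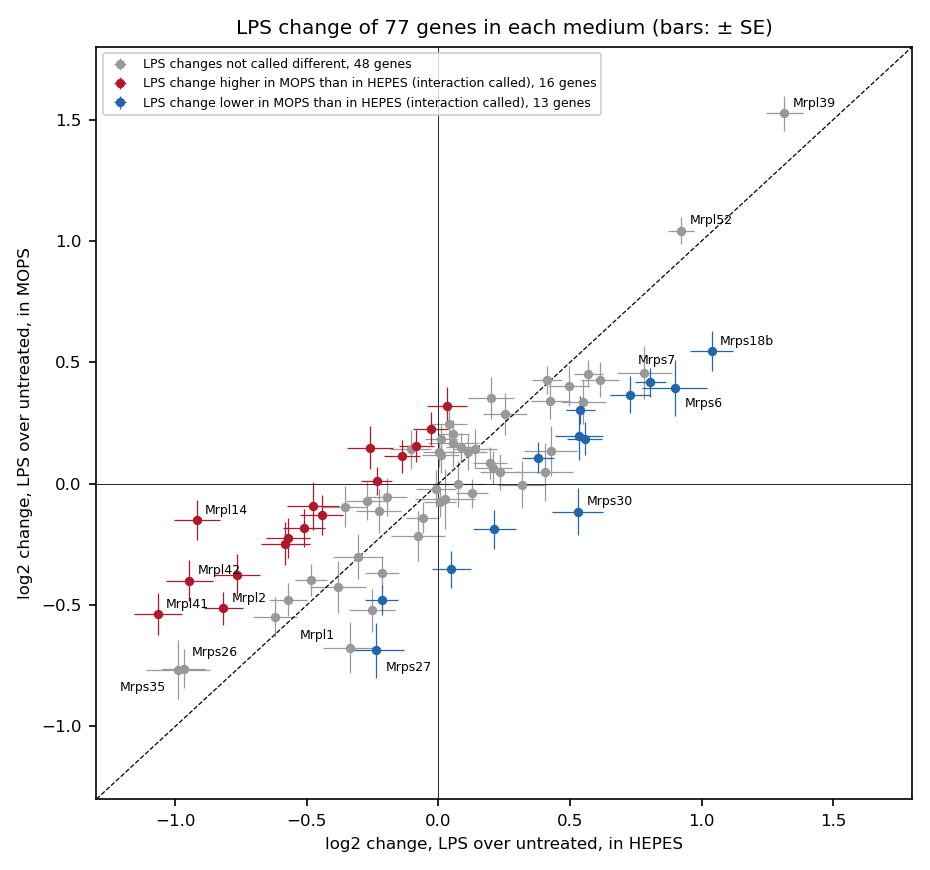
Each point is 1 of the 77 members, with its log2 LPS change in HEPES on the horizontal and in MOPS on the vertical axis and bars of ± SE; the dashed line marks equal changes. The 16 members with a called positive interaction (red) lie above the line and the 13 with a negative one (blue) below it; with library totals alone the LPS changes are lower, with an all-gene median of -0.55 in MOPS and -0.67 in HEPES.

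Without LPS, fewer members were higher than lower in MOPS relative to HEPES, 12 against 23, where 49.7% of all genes were called, 24.3% higher and 25.4% lower. The members' median log2 change was -0.08, beside -0.01 for all genes, and the median called change was 1.24-fold, beside 1.31-fold for all genes. Of large-subunit members, 7 were higher and 18 lower, and of small-subunit members 5 were higher and 5 lower. Mrpl52 had the largest change and was the 1 member called at over 1.5-fold (1.30%, against 16.7% of all genes): the 3 MOPS libraries given above lay below all 3 HEPES libraries, with a log2 change of -0.74 ± 0.054 (adjusted p = 7.3e-13). Mrpl54, also a large-subunit protein without a bacterial counterpart, had 12.9, 16.3 and 13.6 CPM in MOPS, against 19.6, 22.1 and 19.2 CPM in HEPES, a change of -0.50 ± 0.079 (adjusted p = 3.6e-06). Of members with bacterial counterparts, 10 of the large and 2 of the small subunit were lower, among them Mrpl33 at -0.38 (adjusted p = 1.8e-05), Mrpl23, at the exit tunnel, at -0.37 (adjusted p = 4.7e-06), Mrpl47 at -0.36 (adjusted p = 0.0075) and Mrps11 at -0.42 (adjusted p = 0.0026). The Mrpl47 and Mrps11 calls were lost without HEPES library 5 (adjusted p = 0.0732 and 0.0531). Mrps11 and Mrpl46 lie on opposite strands and share exon bases, so their counts may not be independent. In all, 19 of the 77 members share exon bases with a gene that has at least 10% of their counts, on the opposite strand for 17 of them.

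Among the members higher in MOPS without LPS, Mrps6 had 6.64, 6.73 and 6.11 CPM in MOPS, against 4.79, 4.33 and 4.02 CPM in HEPES, a log2 change of 0.57 ± 0.12 (adjusted p = 0.00023). Mrpl38, of the central protuberance, had 28.98, 27.1 and 27.2 CPM in MOPS, against 18.2, 23.1 and 19.5 CPM in HEPES, a change of 0.45 ± 0.075 (adjusted p = 7.5e-06). In both genes the media did not overlap, as in 53.2% of the members and 57.6% of all genes without LPS. Mrps15 changed by 0.35, Mrps30 by 0.35, Mrpl2 by 0.34 and Mrps10 by 0.31 (adjusted p = 3.2e-05, 0.0025, 5.6e-05 and 0.00026).

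With LPS, 13 members were higher and 27 lower in MOPS than in HEPES, where 53.8% of all genes were called, 26.9% higher and 26.9% lower, with a median log2 change of -0.06, beside 0.00 for all genes. With library totals alone the split was 23 higher and 15 lower, and without HEPES with LPS library 12 the higher count was 8. Under library totals alone the median was 0.10 for all genes and 0.03 for the members. Mrpl2, which binds rRNA at the peptidyl transferase centre, had 20.8, 19.96 and 20.3 CPM in MOPS with LPS, against 13.3, 12.03 and 13.96 CPM in HEPES with LPS, a change of 0.64 ± 0.077 (adjusted p = 2.4e-08). Mrpl14 and Mrpl41, given above, were higher by 0.63 ± 0.093 and 0.47 ± 0.099 (adjusted p = 8.1e-07 and 0.00019). Mrps15, Mrpl57 and Mrps34, the last mutated in human Leigh syndrome, were higher by 0.45, 0.42 and 0.42 (adjusted p = 7.7e-06, 6.2e-06 and 0.00059). Of the Mrps34 exon bases, 77.8% overlap other genes, among them Mapk8ip3, an opposite-strand gene of higher count. On the lower side, Mrpl47 had 5.81, 7.28 and 6.89 CPM in MOPS with LPS, against 11.7, 10.8 and 10.5 CPM in HEPES with LPS, and Mrpl46 had 8.95, 8.89 and 10.2 CPM, against 14.6, 14.2 and 15.6 CPM. Neither overlapped between the media, as in 58.4% of the members and 58.8% of all genes with LPS. The changes of Mrpl47 and Mrpl46 were -0.72 ± 0.12 and -0.66 ± 0.097 (adjusted p = 4.8e-06 and 7.7e-07). Mrpl47 overlaps Actl6a and Ndufb5 on the opposite strand, and Mrpl19 overlaps Gcfc2 on the opposite strand over 36.0% of its exon bases. Mrpl19, Mrpl52 and Mrpl54 changed by -0.66, -0.62 and -0.60 (adjusted p = 7.3e-07, 8.2e-12 and 1.8e-07), and Mrps5 by -0.52 (adjusted p = 1.9e-06).

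The medium comparisons without and with LPS share no library. In both, 6 members were higher (Mrpl2, Mrpl24, Mrpl38, Mrpl57, Mrps10 and Mrps15) and 11 lower (Mrpl11, Mrpl19, Mrpl20, Mrpl21, Mrpl23, Mrpl46, Mrpl47, Mrpl51, Mrpl52, Mrpl54 and Mrps11), and 20 were called in neither. These are 7.79%, 14.3% and 26.0% of the members, against 13.8%, 12.8% and 29.6% of all genes. Mrps30 was the 1 member called in opposite directions, higher without LPS and lower with it (as were 3.65% of all genes), at -0.29 ± 0.099 (adjusted p = 0.013), a call not made with library totals alone (adjusted p = 0.0883).

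**Figure D4:**
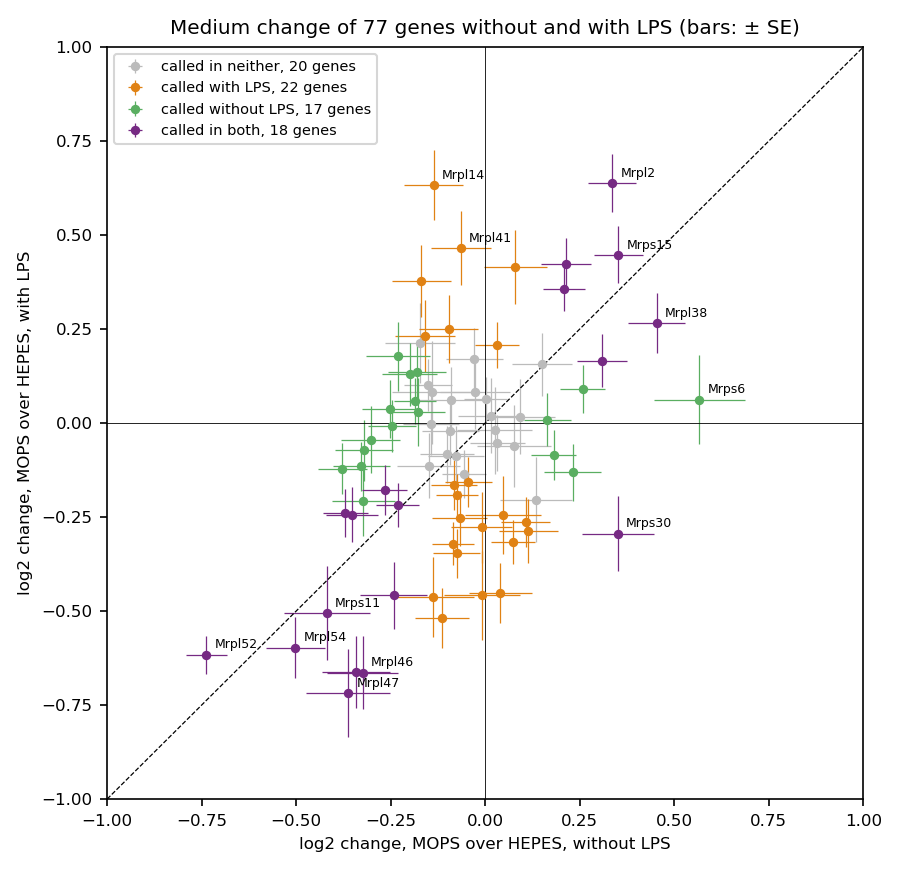
Each point is 1 of the 77 members, with its log2 change of MOPS over HEPES without LPS on the horizontal and with LPS on the vertical axis and bars of ± SE; the dashed line marks equal changes. Of the 18 members called in both (purple), 17 (94.4%) have the same sign in both, against 80.4% of the 4795 genes called in both, with Mrpl52, Mrpl54, Mrpl46 and Mrpl47 at the lower left and Mrpl2 and Mrps15 at the upper right, and Mrps30 lies apart; library totals alone change 13 higher and 27 lower with LPS to 23 and 15.

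The rest of the translation machinery was described from lists. Over all genes, LPS gave 34.1% higher and 34.9% lower in MOPS, and 35.6% higher and 41.2% lower in HEPES. The cytosolic ribosomal proteins, which build the ribosome outside the organelle, moved together with LPS: of 84, 74 were higher and 0 lower in MOPS, and 61 higher and 0 lower in HEPES, with median log2 changes of 0.30 and 0.21 (all genes -0.03 and -0.08), but with library totals alone 2 were higher and 56 lower in MOPS, and 3 higher and 72 lower in HEPES. Of 89 nuclear-encoded subunits of the respiratory chain and ATP synthase, 56 were higher and 8 lower with LPS in MOPS, and 32 higher and 21 lower in HEPES, against 0 higher and 61 and 82 lower with library totals alone. Their interaction was positive in 39 and negative in 2, and 54 and 2 with library totals alone. Over all genes it was positive in 21.9% and negative in 17.6% with TMM. Without LPS, MOPS over HEPES gave 7 higher and 41 lower respiratory subunits, and with LPS 25 higher and 13 lower. The all-gene shares were 24.3% higher and 25.4% lower without LPS, and 26.9% in each direction with it. Whether these sets differ from the mitochondrial ribosomal proteins was not tested.

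Among the partners of the mitochondrial ribosome, more genes were lower than higher with LPS in 3 lists. The same held over all genes, at 34.9% against 34.1% in MOPS and 41.2% against 35.6% in HEPES. Of 17 mitochondrial aminoacyl-tRNA synthetases, which charge the organelle's tRNAs, 0 were higher and 14 lower in MOPS, and 1 higher and 14 lower in HEPES, with median log2 changes of -0.65 and -0.77. Of 13 translation factors, 2 were higher and 9 lower in MOPS, and 2 higher and 8 lower in HEPES. Their median log2 changes were -0.53 and -0.70, and the lowest -1.20 and -1.48. Against most of its list, Gfm1, the elongation factor that moves the ribosome along the mRNA, was 1 of the higher ones. It had 0.19 and 0.41 (adjusted p = 0.0038 and 9.8e-08), with a negative sign under library totals alone. Of 26 assembly and rRNA-modification genes, 7 were higher and 14 lower in MOPS (26.9% and 53.8%), and 11 higher and 13 lower in HEPES (42.3% and 50%). Rbfa, a maturation factor of the small subunit, changed by -1.18 ± 0.07 in MOPS and -2.13 ± 0.079 in HEPES (adjusted p = 1.1e-15 and 3.2e-21). Rpusd4, which modifies the large-subunit rRNA, had a change of -0.30 in MOPS and 0.34 in HEPES (adjusted p = 0.0027 and 0.0006; negative in both with library totals alone). Of 16 genes of mitochondrial transcription and RNA processing, 4 were higher and 8 lower in MOPS, and 5 higher and 5 lower in HEPES, among them Tfam, which packages mitochondrial DNA, at -0.32 in MOPS and 0.23 in HEPES (adjusted p = 0.00034 and 0.0043; negative in both with library totals alone).

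Both mitochondrial rRNAs rose: mt-Rnr1, of the small subunit, by 0.66 ± 0.051 in MOPS and 0.86 ± 0.049 in HEPES, and mt-Rnr2, of the large, by 0.61 ± 0.063 and 0.97 ± 0.063 (adjusted p = 8.2e-13, 5.5e-16, 1.7e-07 and 2.1e-10), and with library totals alone all 4 values stayed positive but mt-Rnr2 in MOPS was not called (adjusted p = 0.19). The 2 rRNAs together held only 0.0257% to 0.0383% of all counts per library, against 0.785% to 1.13% for the 13 mitochondrial mRNAs. How well such counts follow the amount of rRNA in the cells was not tested. Of the 13 mitochondrial mRNAs, 10 were higher and 0 lower in MOPS and 7 higher and 0 lower in HEPES, against 0 higher and 6 and 10 lower with library totals alone. Without LPS, 9 of the 13 were lower and 0 higher in MOPS than in HEPES, where 25.4% of all genes were lower and 24.3% higher. Of the 5 mitochondrial ribosomal proteins without an Mrp name, 1 was higher and 0 lower with LPS in MOPS, and 2 higher and 1 lower in HEPES. Ptcd3, of the small subunit, rose by 0.48 and 0.59 (adjusted p = 3.6e-07 and 4e-09; near 0 with library totals alone), and Dap3, a GTP-binding small-subunit protein, and Chchd1 were higher in MOPS than in HEPES with LPS, by 0.38 and 0.44 (adjusted p = 2.6e-05 and 1.7e-05). Dap3 was also higher in MOPS without LPS, by 0.31 (adjusted p = 0.00012), where Chchd1 had 0.16 and did not pass the test (adjusted p = 0.067). Of 8 tested regulators of mitochondrial biogenesis, 5 were higher and 2 lower in MOPS and 7 higher and 1 lower in HEPES, against 2 and 4, and 3 and 3, with library totals alone. The largest change was the fall of Ppargc1b, a coactivator related to PGC-1alpha, by 2.60 ± 0.17 in MOPS and 3.09 ± 0.17 in HEPES on the log2 scale (adjusted p = 6.7e-15 and 7.3e-17). It averaged 1.21 ± 0.221 CPM with LPS, against 7.45 ± 0.109 CPM without it, in MOPS, and 1.07 ± 0.182 CPM with LPS, against 9.14 ± 0.893 CPM without it, in HEPES (SD, n = 3 each). Myc rose by 1.14 ± 0.066 in MOPS and 1.61 ± 0.064 in HEPES, and Pprc1, a coactivator, by 0.49 ± 0.053 and 1.12 ± 0.054 (adjusted p = 8.4e-16, 6.1e-20, 1.7e-09 and 2.2e-18; Pprc1 slightly negative in MOPS with library totals alone). Gabpa, a subunit of GABP, rose by 0.39 and 0.73 (adjusted p = 1.2e-08 and 4e-15; negative in MOPS with library totals alone). Nrf1, which encodes nuclear respiratory factor 1 and is named for the motif search below after its values were seen, had 0.06 in MOPS and rose by 0.45 in HEPES (adjusted p = 0.47 and 2.1e-06; negative in both with library totals alone).

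**Figure D5:**
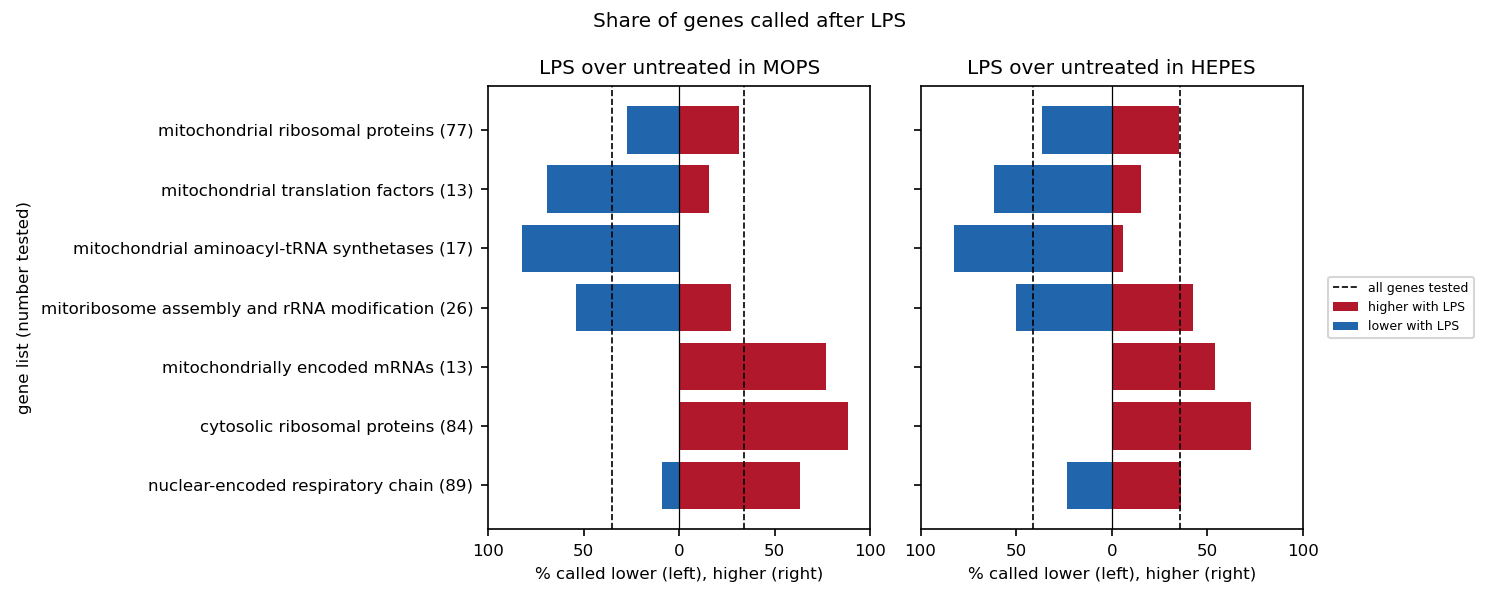
Bars give the share of each list's tested genes called lower (left, blue) or higher (right, red) with LPS in MOPS (left panel) and HEPES (right panel), with dashed lines for all genes tested. Mitochondrial ribosomal proteins split about evenly, 24 higher and 21 lower in MOPS and 27 and 28 in HEPES, whereas 14 of 17 synthetases were lower and 74 and 61 of 84 cytosolic ribosomal proteins higher, the last turning to 56 and 72 lower with library totals alone.

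Promoter sequence was read because the members are a set of dispersed genes, on 17 chromosomes, of which some rose and others fell in the same cells. RefSeq promoters (GRCm38.p6, 250 bases before to 50 after each start) were matched by symbol for 68 of the 77 members. Short cores of factors known to act at genes of mitochondrial biogenesis were searched on both strands. The core of nuclear respiratory factor 1, GCATGCG, was present in 8 of the 68 members (11.8%), against 4.01% of all 27025 genes with a promoter and 7.21% of the 10158 that were tested. The core bound by ETS factors such as GABP, CCGGAAG, was present in 25 (36.8%), against 9.93% of all and 20.2% of tested genes, and the YY1 core, AAGATGG, in 13 (19.1%), against 7.28% and 8.45%. The E-box CACGTG was present in 5 (7.35%, against 8.09% and 11.8%) and the estrogen-related receptor core AAGGTCA in 4 (5.88%, against 5.38% and 3.97%). Of the 8 members with the nuclear respiratory factor core, 5 were higher and 1 lower with LPS in MOPS, and 5 higher and 2 lower in HEPES. Of the 60 without it, 16 were higher and 18 lower in MOPS, and 18 higher and 24 lower in HEPES, where the shares over all genes were 34.1% and 34.9%, and 35.6% and 41.2%. With library totals alone, the members with this core called higher were Mrpl39 in MOPS, and Mrpl39 and Mrps18b in HEPES. Of the 25 with the ETS core, 11 were higher and 8 lower in MOPS, and 6 higher and 9 lower in HEPES; of the 43 without it, 10 were higher and 11 lower in MOPS, and 17 higher and 17 lower in HEPES. A match is a description of letters and not a bound site.

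Upstream stretches of 6 members are shown, chosen after their values were seen among those called in the same direction in both media with upstream bases free of annotated exons: Mrpl52, Mrps22 and Mrps2 rose with LPS, and Mrpl34, Mrpl22 and Mrpl41 fell. Each runs 5′ to 3′ on the strand of its gene and ends at or just before the start, with cores in capitals. They are at chr14:54426759-54426908 (Mrpl52, forward strand), chr9:98601680-98601829 (Mrps22, reverse strand), chr2:28467916-28468065 (Mrps2, forward strand), chr8:71464776-71464925 (Mrpl34, forward strand), chr11:58171514-58171660 (Mrpl22, forward strand) and chr2:24975099-24975248 (Mrpl41, reverse strand).
Mrpl52: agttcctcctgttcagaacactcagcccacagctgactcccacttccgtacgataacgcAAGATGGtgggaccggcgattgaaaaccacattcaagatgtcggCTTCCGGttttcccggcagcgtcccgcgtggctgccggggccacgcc
Mrps22: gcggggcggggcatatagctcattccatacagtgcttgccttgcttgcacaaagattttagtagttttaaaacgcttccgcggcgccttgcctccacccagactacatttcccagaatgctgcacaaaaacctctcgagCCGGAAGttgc
Mrps2: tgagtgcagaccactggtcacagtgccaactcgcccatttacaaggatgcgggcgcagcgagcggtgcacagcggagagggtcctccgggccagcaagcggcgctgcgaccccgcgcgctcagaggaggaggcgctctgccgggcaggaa
Mrpl34: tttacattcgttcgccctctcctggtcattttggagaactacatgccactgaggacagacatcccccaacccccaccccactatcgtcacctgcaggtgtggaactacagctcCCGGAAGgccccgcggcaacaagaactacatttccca
Mrpl22: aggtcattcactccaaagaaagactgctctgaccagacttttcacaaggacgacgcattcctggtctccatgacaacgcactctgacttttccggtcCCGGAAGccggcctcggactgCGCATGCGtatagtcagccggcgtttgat
Mrpl41: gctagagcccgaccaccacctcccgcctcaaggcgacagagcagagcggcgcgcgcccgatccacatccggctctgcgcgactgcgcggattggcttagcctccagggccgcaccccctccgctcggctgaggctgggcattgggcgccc
The ETS core appears in Mrpl52 (reverse strand, at -47) and Mrps22 (at -11), which rose, and in Mrpl34 (at -37) and Mrpl22 (at -53), which fell. The Mrpl52 stretch also holds the YY1 core at -91, and the Mrpl22 stretch the nuclear respiratory factor core on both strands at -32 and -31, which overlap. Mrps2 and Mrpl41 held none of the 5 in these stretches. The log2 change of Mrpl22 was -0.43 in MOPS and -0.38 in HEPES (adjusted p = 0.00085 and 0.0021).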

How the data were processed

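Deposited values were gene counts of 12 RNA-seq libraries, made by the authors from NEBNext Ultra libraries; per the submitters' processing notes the tools were CASAVA 1.8, HISAT2 2.0.5 and featureCounts 1.5.0-p3 with genome build mm10. Which strand setting the counting used is not given in the sources used here. That deposited table also holds the authors' own comparisons as log2 fold changes with p-values and adjusted p-values. In the authors' deposited table, MOPS over HEPES gave 11 members higher and 18 lower without LPS, 10 and 20 with LPS, and 21 and 16 (MOPS) and 26 and 19 (HEPES) with LPS over untreated, each in the direction found here.

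Counts were fitted in edgeR 4.0.16 (R 4.3.3) with a mean per group over 12 libraries (8 residual degrees of freedom), TMM scaling, filterByExpr and the robust quasi-likelihood test. P-values were adjusted by Benjamini-Hochberg over 14506 genes, with a threshold of 0.05; SE is the log2 change over the root of the F statistic. CPM are TMM-scaled, and RPKM divide them by the table's gene length. Each pair of libraries of a group differed by more than counting noise (chi-square per degree of freedom 2.66 to 6.54), so all 12 were kept; this does not tell separate samples from repeat preparations. Gene-level code was tested on simulated data. Alternatives were RLE, library totals, a gene-length offset, no filter, 2-group fits, a fit without robust and DESeq2 1.42.0, and leaving out each library. Members named are the 6 highest and 6 lowest called log2 changes in each of 5 contrasts, the 5 highest and 3 lowest by RPKM, and members picked for known roles; genes of other lists are among the 3 smallest p per contrast, of which 1 is not reported here. The members, lists and rules were chosen with earlier results of these data known.

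Other marker lists summed to 189 to 332 CPM (granulocytes and mast cells, 7 of 10 tested, Ly6g at 0), 37.3 to 56.2 CPM (dendritic cells) and 6.53 to 9.56 CPM (mesothelial, stromal and endothelial cells) per library.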

Additional observations from a re-analysis of the deposited data

Results flagged for a closer look

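The LPS change differed between the media, by the interaction test in edgeR (adjusted p under 0.05 over all genes), for the members and other named genes below. Each value is the log2 change with LPS in MOPS less that in HEPES, and the 4 groups' libraries stand in the report for most of them.

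Positive values were 0.77 for Mrpl14, 0.55 for Mrpl42, 0.53 for Mrpl41, 0.41 for Mrps33, 0.39 for Mrpl34, 0.39 for Mrps36, 0.34 for Mrps34, 0.33 for Mrpl58, 0.30 for Mrpl2, 0.29 for Mrps18c, 0.26 for Mrpl33 and 0.25 for Mrps21. Negative values were -0.65 for Mrps30, -0.50 for Mrps6, -0.49 for Mrps18b, -0.45 for Mrps27, -0.40 for Mrpl45 and Mrps5, -0.39 for Mrps7, -0.34 for Mrpl46, -0.26 for Mrpl43 and -0.24 for Mrpl3. The Mrps18c call was lost in 8 of 12 refits without 1 library (all but those without MOPS library 2, HEPES libraries 4 and 6 and MOPS with LPS library 9), in DESeq2 and with RLE or gene length in the scaling, with adjusted p up to 0.214. The Mrpl58 call was lost in 5 of 12 (without MOPS library 3, MOPS with LPS libraries 7 or 8, or HEPES with LPS libraries 10 or 11), in DESeq2 and with gene length, with adjusted p up to 0.111. The Mrpl3 call was lost without MOPS library 3 (adjusted p = 0.0631) and with library totals alone (0.116).

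Among the other genes named, positive values were 0.95 for Rbfa and 0.28 for Chchd1. Negative values were -0.64 for Rpusd4 and Pprc1, -0.55 for Tfam, -0.46 for Myc, -0.39 for Nrf1, -0.36 for mt-Rnr2, -0.34 for Gabpa, -0.22 for Gfm1 and -0.19 for mt-Rnr1. The Chchd1 call was lost with RLE (adjusted p = 0.0713), with gene length in the scaling (0.207) and in DESeq2 (0.120), and those of Gfm1 and mt-Rnr1 with library totals alone (0.143 and 0.167). The B cell markers (9 of 10 positive, 0 negative in this test) and the macrophage markers (5 positive, 1 negative) moved with the same contrast, and their part in these values was not tested.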

How the results depend on the processing

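No paired analysis was possible because the labels number the libraries 1 to 12 and no 2 groups share a number. With library totals alone in place of TMM, 23 members were higher and 15 lower in MOPS than in HEPES with LPS, 2 higher and 64 lower with LPS in MOPS, 5 higher and 59 lower with LPS in HEPES, and the interaction was negative in 8. With gene length in the scaling, 18 were lower with LPS in HEPES, and the interaction was positive in 3 and negative in 21. Positive interactions numbered 10 with RLE and 5 in DESeq2. The median change of all genes tested moved with these settings as well. Under these and the other settings that keep all libraries, the other counts of members called stayed within 1.5 times those reported.

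Library totals alone reversed 19 of the 135 named values, some of them not called with TMM. In MOPS the log2 LPS changes became -0.056 for Mrps22, -0.060 for Mrpl17, -0.084 for Mrps2, -0.40 for Mrpl11, -0.22 for Mrpl12, -0.21 for Mrpl3, -0.33 for Mrpl4, -0.35 for Mrps12, -0.12 for Mrps6 and -0.19 for Mrps18c. In HEPES they became -0.58 for Mrpl11, -0.33 for Mrpl12, -0.045 for Mrpl3, -0.58 for Mrpl4, -0.37 for Mrpl45, -0.53 for Mrps12, -0.58 for Mrps18a, -0.55 for Mrps18c and -0.054 for Mrps30. Over all members, named or not, the sign turned in 21 of the 45 called with LPS in MOPS and in 19 of the 55 called in HEPES. Library totals lack the correction for composition that the other scalings share, and the cause beyond that was not tested. As a share of counts of nuclear protein-coding genes, the members took 0.137% in MOPS with LPS, 0.136% in HEPES with LPS, 0.187% in MOPS and 0.194% in HEPES.

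Without 1 library at a time, members higher and lower numbered 10 to 12 and 18 to 23 in MOPS over HEPES without LPS, 8 to 13 and 24 to 31 with LPS, 21 to 26 and 18 to 22 for LPS in MOPS, 25 to 29 and 23 to 28 for LPS in HEPES, and 5 to 15 and 9 to 16 for the interaction. The 8 came without HEPES with LPS library 12 and the 5 without HEPES with LPS library 10. Of 1620 refits of 135 named values, 67 changed side of the threshold and 0 reversed. Genes of the other lists were refitted under the scalings and DESeq2 only. With 3 libraries a group, replicate number limits the precision of every value.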
